A study of Mus musculus with 4 samples.

Results

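The cells described here are cartilage cells of the mouse femoral epiphysis, the growing end of the thigh bone, that carry lubricin RNA. They numbered 3278 of the 49055 cells kept in the series, 1882 in the library of postnatal day 7 and 1396 in that of day 8. A cell was a member when it held at least 500 genes, at least 1000 unique molecular identifiers (UMIs, counted RNA molecules) and at most 15% mitochondrial UMIs. In addition, Col2a1, Col9a1, Col9a2, Col9a3 and Acan together made up at least 3% of its UMIs, Prg4 at least 0.2% and Col10a1 less than 0.5%. Cells with UMIs of 3 or more of the division genes Mki67, Top2a, Cdk1, Ccnb1, Ccnb2, Birc5, Cenpf and Prc1 were left out. Because these values chose the cells, levels of Prg4 and of the rule's other genes are given only as a description.

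All animals were wild type, and the series profiled cells released from the femoral epiphysis at 7, 8, 10 and 12 days of age by droplet 3' single-cell RNA sequencing. Each age is 1 library, so no difference could be tested, and no source used here says how many animals went into each. Day, library and animals cannot be told apart. Per its title, the study concerned whether cartilage cells give rise to blood stem cells by way of endothelium, and the lubricin cells are part of the cartilage in those libraries.

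Articular cartilage lines the ends of bones at a joint, and its most superficial cells secrete lubricin, the product of Prg4, a mucin-like glycoprotein that lowers friction between the sliding surfaces. Deeper in the epiphysis, chondrocytes pass from a resting state through division and a prehypertrophic state marked by Ihh to hypertrophy, and the cartilage they leave is replaced by bone. Superficial cells are known for signalling through the EGF receptor, for the transcription factors Creb5 and Erg, and for a matrix with less aggrecan than that of deeper cartilage.

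Creb5 belongs to the family of factors that bind the cyclic AMP response element, and it led the genes that accompanied Prg4 (values below). Upstream sequence is therefore shown for Creb5 itself and for Errfi1, an inhibitor of the EGF receptor and a marker of the superficial cells, each of which has a window with a full copy of that element, TGACGTCA. It is in capitals, and each sequence ends before an annotated transcript start. The sequences are RefSeq's, on GRCm38.p6, which is not the build of the count files, from chr6:53287158-53287269 for Creb5 and chr4:150854950-150855056 for Errfi1, both on the plus strand.
Creb5: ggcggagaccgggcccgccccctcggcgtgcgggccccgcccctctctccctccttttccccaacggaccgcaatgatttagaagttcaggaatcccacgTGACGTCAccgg
Errfi1: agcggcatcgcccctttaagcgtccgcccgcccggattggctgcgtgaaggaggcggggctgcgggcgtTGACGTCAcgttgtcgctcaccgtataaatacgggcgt
The element begins 45 bases before the transcript start of Creb5 and 51 bases before that of Errfi1. Searched in the 250 bases before each start, where the palindrome reads alike on both strands, TGACGTCA was present in 2.59% of the 11805 windows of genes past the count filter. Among the 106 genes called higher below, 84 had a window and only that of Creb5 held the element (1 of 101 windows, 0.990%). The AP-1 motif TGANTCA, searched on both strands and which cannot overlap the first, was in 6.93% of these 101 windows and in 4.49% of all windows of genes past the filter. It was in 8.42% of the 95 windows of genes called lower below, so it was not particular to the higher genes. These shares rest on 7 and 8 windows. The other windows of Creb5 and Errfi1 and those of Cytl1 and Ier3 held no TGACGTCA. Prg4 was not matched in the RefSeq table. These matches describe the letters in the windows.

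The members made up 16.6% of all cells on day 7 (exact Clopper-Pearson 95% interval 16.0 to 17.3) and 12.2% on day 8 (11.6 to 12.8). Set against non-dividing cartilage cells alone, that is all cells passing every part of the rule but the one on Prg4, their share was 21.0% on day 7 (20.1 to 21.8) and 24.2% on day 8 (23.1 to 25.3). The same rule found 59 cells in the day-10 library, or 22.6% of such cartilage cells (17.7 to 28.2), and 692 in the day-12 library, or 24.4% (22.8 to 26.0). The share among cartilage cells thus lay between 21.0% and 24.4% in the 4 libraries, while the share among all cells was 0.588% on day 10 and 4.26% on day 12. These intervals, and those on levels, cover counting error only, and PCR copies are collapsed only as far as the molecular identifiers do so.

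Depth was lower in members than in the cartilage cells they were compared with. The member cells held a median of 2607 UMIs and 1188.5 genes on day 7 and of 2771 UMIs and 1259 genes on day 8, and the other chondrocytes 3277 and 3545.5 UMIs. Mitochondrial UMIs were a median 1.71% and 1.49% in members and 1.54% and 1.23% in the others. The library totals were 44218720 UMIs on day 7 and 46534365 on day 8, and Scrublet, a doublet caller, marked 0 cells of either library and so gave no usable doublet call. Of the kept cells, 65 barcodes occurred in both libraries, 4 of them as members in both.

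Prg4 varied widely among the members. Its median was 0.746% of a cell's UMIs on day 7, with quartiles of 0.345% and 1.79% and a highest cell at 12.3%. On day 8 the median was 1.22%, the quartiles were 0.425% and 2.93%, and the highest cell reached 17.6%. In UMIs, the median member held 20 copies on day 7 and 35 on day 8. The distribution ran through the 0.2% cut without a gap: 212 members of day 7 and 160 of day 8 lay between 0.2% and 0.25%, and 374 and 300 cartilage cells lay just outside, between 0.15% and 0.2%. At the cartilage cut, 320 members of day 7 and 427 of day 8 held 3 to 4% cartilage UMIs, and 230 and 416 Prg4 cells lay just below, at 2 to 3%.

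**Figure D1:**
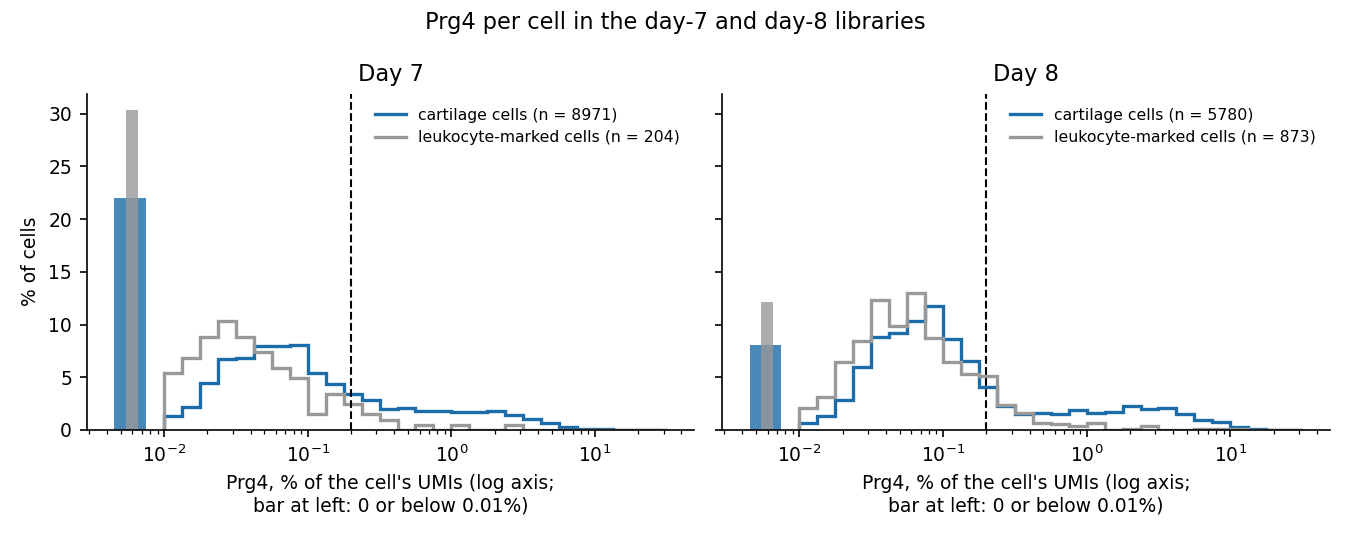
Share of cells (y axis, %) by Prg4 as a percent of the cell's UMIs (x axis, logarithmic; the bars at the left hold cells with none or less than 0.01%) in each library, for cells passing the rule without its Prg4 part (blue) and for cells with 3 or more leukocyte markers (grey). The dashed line is the 0.2% cut; a tail above 1% is seen in cartilage cells, and the bulk of both kinds of cell lies below the cut.

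Prg4 UMIs were also found in cells that should lack it, whether from free RNA or from doublets, which were not told apart here. A Prg4 UMI was found in 74.0% of 204 leukocyte cells on day 7 and in 89.9% of 873 on day 8, at median depths of 4632.5 and 4713 UMIs, and in 73.0% and 89.5% of the other chondrocytes. After every cell was thinned to 1000 UMIs, which left out no kept cell, the shares were 32.4% and 48.1% in leukocytes, 37.0% and 47.4% in other chondrocytes and 99.0% and 98.4% in members. A single Prg4 UMI was therefore read as background in these libraries. The 0.2% cut itself was passed by 10 leukocytes of day 7 (4.90%) and 84 of day 8 (9.62%), whereas 1% Prg4 was passed by 2 (0.980%) and 13 (1.49%) of them, against 41.2% and 54.4% of the members. Counted the other way, 4 members of day 7 and 23 of day 8 held UMIs of 3 or more leukocyte markers.

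The other markers given for these cells were chosen with earlier results of these data known. Their values therefore only describe the members and do not bear out the label. Errfi1 stood at 1459 CPM (a gene's UMIs scaled to the UMI total of its group of cells) in members and 733 in other chondrocytes on day 7, and at 1047 and 574 on day 8, ratios of 1.98 and 1.82. Ier3, an immediate early gene, stood at 716 and 260 CPM on day 7 and at 490 and 208 on day 8, or 2.72-fold and 2.33-fold higher in members. Cytl1, a secreted cytokine-like protein of cartilage, stood at 435 and 247 CPM on day 7 and at 626 and 117 on day 8. Its ratio was 1.75 on day 7 and 5.19 on day 8. All 3 were thus higher in members in both libraries beyond their Poisson intervals, but Errfi1 in both and Cytl1 on day 7 stayed below 2-fold. With Prg4 of at least 0.1%, or with cells thinned to 1000 UMIs, Ier3 fell below 2-fold as well.

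None of these 3 markers was confined to the members. In cells thinned to 1000 UMIs, Errfi1 was detected in 59.4% of members and 41.3% of other chondrocytes on day 7 and in 46.8% and 34.4% on day 8, and in 15.7% and 19.8% of leukocytes. Cytl1 was detected in 24.2% and 14.1% on day 7 and in 30.5% and 7.71% on day 8. Without thinning, the shares of members with a UMI were 78.2% and 70.1% for Errfi1 and 39.5% and 48.6% for Cytl1. Most members thus held an Errfi1 UMI and under 50% of them a Cytl1 UMI at these depths.

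To see which other genes accompany lubricin, UMIs were summed over the members and over the 7089 and 4384 other chondrocytes of the same library, which passed the same rule with Prg4 below 0.2%. Ratios are of CPM with 5 CPM added to each side, which understates changes of genes at low levels. A gene was called when it was at least 2-fold apart in the same direction on both days, with at least 10 expected UMIs in every sum. Of 11948 genes past that filter, 106 were called higher in members (0.887%, Prg4 among them) and 105 lower (0.879%). No gene 2-fold apart on either day lay on the opposite side on the other, and the median log2 ratio over all genes past the filter was 0.02 on day 7 and 0.05 on day 8.

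Creb5 and Wif1 led the higher genes after Prg4. Creb5, a transcription factor that is needed for Prg4 expression in superficial chondrocytes, had 459 CPM in members and 67.8 in other chondrocytes on day 7, and 638 and 68.7 on day 8. Those are ratios of 6.37 and 8.72. Wif1, a secreted inhibitor that binds Wnt proteins, had 967 and 161 CPM on day 7 and 860 and 130 on day 8, ratios of 5.86 and 6.42. Member values of each lay far above those of the other chondrocytes on both days.

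Several secreted and matrix proteins followed. Cilp, a protein of the cartilage intermediate layer that binds TGF-beta, had 36.4 CPM in members and 4.93 in other chondrocytes on day 7, and 144 and 9.13 on day 8, ratios of 4.16 and 10.6. Abi3bp, an extracellular matrix protein, had 574 and 144 CPM on day 7 and 800.5 and 199 on day 8. Angptl1, an angiopoietin-like secreted protein, had 245 and 55.5 CPM on day 7 and 336 and 44.8 on day 8. Each was at least 3.88-fold higher in members in either library, but Cilp fell below 2-fold with cartilage genes of at least 6%. Sulf2, an enzyme that removes sulfate groups from heparan sulfate, had 182 and 43.3 CPM on day 7, and Chst3, a chondroitin sulfotransferase, had 62.6 and 13.9.

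The rest of the 15 leading genes had varied functions. Rgs2, which turns off G-protein signalling, stood at 184 against 37.3 CPM on day 7 and 197 against 39.1 on day 8. Hdac9, a class II histone deacetylase, stood at 362 against 84.4 CPM and at 366 against 68.7. Sema3a, a secreted semaphorin that repels growing axons, stood at 125 against 30.01 CPM and at 93.1 against 15.6. The ratios of these 3 lay between 3.72 and 5.04. The other leading genes were Ano6, a membrane scramblase, Dhrs9, a retinol dehydrogenase, Garem1, an adaptor in EGF receptor signalling, and Gas1, a membrane protein that modulates hedgehog signalling, with ratios from 3.58 to 4.98.

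**Figure D2:**
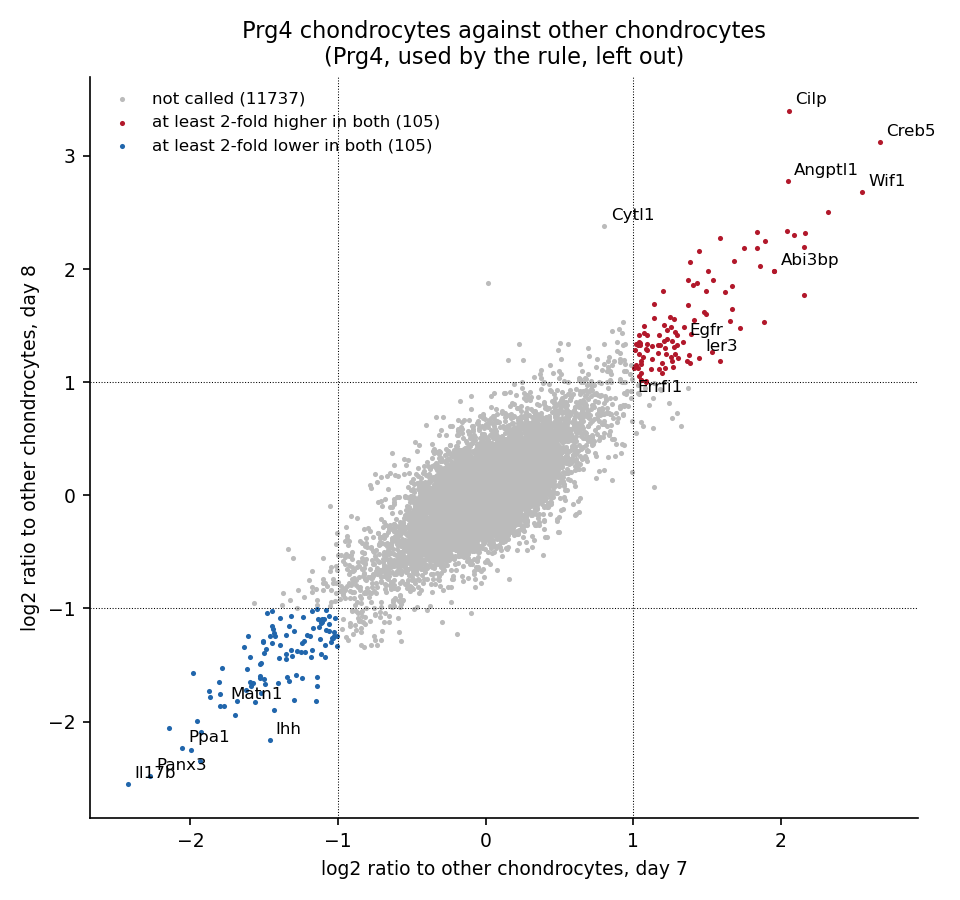
Log2 ratio of CPM (5 CPM added) in Prg4 chondrocytes to other chondrocytes on day 7 (x axis) and day 8 (y axis), 1 point a gene past the count filter; dotted lines mark 2-fold. Red points are higher and blue points lower on both days, Creb5, Wif1 and Cilp lie at the upper right, and Cytl1 lies above the diagonal with a far larger ratio on day 8.

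The 15 leading genes lower in members included products of deeper cartilage. Epyc, a small leucine-rich proteoglycan of growth cartilage, had 212 CPM in members and 952 in other chondrocytes on day 7, and 242 and 1024 on day 8, or 4.42-fold and 4.16-fold lower in members. Panx3, a channel protein of prehypertrophic and hypertrophic chondrocytes, had 36.9 and 198 CPM on day 7 and 29.1 and 185 on day 8. Matn1, cartilage matrix protein, had 423 and 1454 CPM on day 7 and 451 and 1648 on day 8. For all 3 the member value was less than 30% of that in other chondrocytes (ratios 0.207 and 0.179 for Panx3, 0.293 and 0.276 for Matn1). With members taken from 0.1% Prg4, Matn1 fell below the 2-fold size.

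The remaining leading genes on this side covered several functions. Il17b, a cytokine of the interleukin-17 family, had 17.5 against 116 CPM on day 7 and 17.3 against 126 on day 8, the lowest ratio of all (0.187 and 0.170). Runx2, the transcription factor that drives chondrocyte maturation and bone formation, had 75.8 against 291 CPM and 88.2 against 303. Smpd3, a sphingomyelinase that skeletal mineralization needs, had 95.0 against 382 CPM and 82.0 against 343. Also among the 15 lowest ratios were Ppa1, a pyrophosphatase, Cpa6, a carboxypeptidase, Prkg2, a cyclic GMP-dependent kinase of growth-plate chondrocytes, Rspo3, an enhancer of Wnt signalling, C1qtnf3, Fxyd2, H2-DMb1, Cd24a and H2bc6. Their values were between 3.08-fold and 5.09-fold lower in members, and Prkg2 fell below 2-fold after thinning.

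Read by function, the joint-surface list lay towards the members. This list and those below were chosen with earlier results of these data known, so their values only describe the members and do not bear out the label. Over all genes past the filter, 0.887% were called higher and 0.879% lower. Of its 13 genes past the filter, Prg4 left out, 5 were called higher (Creb5, Erg, Abi3bp, Cilp and Thbs4) and 0 lower, with a median log2 ratio of 0.81 on day 7 and 1.18 on day 8. Erg, an ETS factor of joint-forming cartilage, had 215 and 87.4 CPM on day 7 and 188 and 59.7 on day 8. Gdf5, the growth factor that marks the embryonic joint interzone, was low in members, at 8.38 CPM on day 7 and 9.69 on day 8, against 4.39 and 3.17 in other chondrocytes, and was not called. Clu stood at 188 against 120 CPM on day 7, and Vcam1 at 11.8 against 11.1.

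In the EGF receptor pathway, whose activity keeps superficial cartilage in place in mice, the receptor was the called gene among 15. Egfr had 64.3 CPM in members and 22.4 in other chondrocytes on day 7, and 66.7 and 23.0 on day 8, ratios of 2.53 and 2.56. Its ligand Hbegf stood at 347 against 209 CPM and at 406 against 202, ratios of 1.64 and 1.99. Tgfa, another ligand, stood at 23.2 against 11.7 CPM and at 19.1 against 10.0. Of the feedback inhibitors, Errfi1 is given above, Spry4 had ratios of 1.91 and 2.50, Dusp6 of 1.69 and 1.77, and Spred1 of 1.55 and 1.51. By detection, not every gene of the list lay on the member side. After thinning to equal depth, Erbb4 was detected in 2.39% of members and 3.96% of other chondrocytes on day 7. On day 8 its shares were 1.65% and 3.79%. Lrig3 was detected in 5.90% and 6.62% on day 7 and in 4.66% and 6.61% on day 8. The median log2 ratio of the 15 genes was 0.47 on day 7 and 0.64 on day 8, and 0 genes were called lower.

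Signals of the TGF-beta, BMP and Wnt families differed by member. Among 25 TGF-beta and BMP genes, Grem1, a BMP antagonist, and Gas1 were called higher, and Bmp7, a ligand, and Nog, the antagonist noggin, lower. Grem1 had 84.5 against 31.5 CPM on day 7 and 96.9 against 35.7 on day 8, and Nog had 5.33 against 23.1 and 5.91 against 17.2. Of 9 Wnt ligands and targets, Wnt4, Wnt5b and Lef1 were called lower and 0 higher. Wnt5b, a ligand of maturing chondrocytes, had 21.9 against 61.7 CPM on day 7 and 23.2 against 70.2 on day 8. Antagonists of BMP and of Wnt were therefore found on either side, since Wif1 was higher while Sfrp5 was lower (25.9 against 80.0 CPM on day 7 and 30.5 against 78.8 on day 8).

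Most prehypertrophic genes were lower. Of 7 genes past the filter, 6 were called lower (Ihh, Pth1r, Ptch1, Mef2c, Sp7 and Runx3), and the median log2 ratio was -1.35 on day 7 and -1.61 on day 8. Ihh, the hedgehog ligand that paces chondrocyte maturation, had 12.4 CPM in members and 42.9 in other chondrocytes on day 7, and 8.98 and 57.7 on day 8. Pth1r, the receptor of parathyroid hormone-related protein, had 50.1 and 135 CPM on day 7 and 43.7 and 143 on day 8. Of 7 hypertrophic genes past the filter, 1 was called lower (Panx3) and 0 higher. The factors shared by all chondrocytes were close to equal: Sox9 had 1277 and 1019 CPM on day 7 and 1182 and 1110 on day 8, and the ratios of Sox5 and Sox6 lay between 1.00 and 1.06. Osr2, a zinc-finger factor of developing joints, was called higher (34.1 against 13.6 CPM on day 7 and 44.4 against 12.6 on day 8).

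Resting-zone genes did not move as a block. Of 8, Grem1, Gas1, Wif1 and Apoe were called higher and Sfrp5 lower. Apoe, the lipid carrier, had 584 against 255 CPM on day 7 and 651 against 257 on day 8. Ucma, a matrix protein of the resting zone, was on the other side of 1, at 2565 against 4139 CPM on day 7 and 2631 against 3721 on day 8, and was not called. Pthlh, which encodes parathyroid hormone-related protein, stood at 13.3 against 15.2 CPM on day 7 and 27.7 against 15.6 on day 8.

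Most matrix genes were not called either way. Of the rule's own cartilage genes, Col2a1, the main collagen of cartilage, was alike in both kinds of cell (49863 and 49641 CPM on day 7, 41767 and 42090 on day 8), while Acan, the aggrecan core protein, had 1478 against 2471 CPM and 1466 against 2505. Among 16 matrix genes outside the rule, Matn1 and Matn3 were called lower and 0 higher (median log2 ratio -0.37 and -0.27), with 14 called neither way, and Hapln1, which links aggrecan to hyaluronan, had 1668 against 3105 CPM on day 7. Among 15 other collagens, Col3a1, Col5a2 and Col14a1 were called higher, 0 lower and 12 neither way (median 0.64 and 0.66). The summed level of this list was nevertheless lower in members, at 19763 against 22704 CPM on day 7 and 20942 against 23282 on day 8. Col3a1, a fibrillar collagen common in softer connective tissue, had 1445 against 711 CPM on day 7 and 1362 against 611 on day 8. Col11a1, a partner of Col2a1 in cartilage fibrils, had 6964 against 11836 CPM on day 7.

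The collagen levels were set beside markers of neighbouring cell types. The summed level of the 15 fibroblast markers, Col3a1 among them, was 1548 CPM in members and 814 in other chondrocytes on day 7 and 1508 and 726 on day 8, with Clic5 at 0 in the members of day 7. Without Col3a1 the other 14 markers summed to 103 and 103 CPM on day 7 and to 146 and 116 on day 8. Of the 10 of these past the filter, only Col3a1 was called. For the 9 tendon and ligament markers the sums were 6370 and 5181 CPM on day 7 and 7892 and 6689 on day 8, and Thbs4 alone was called, while the tendon factor Scx had 2.47 against 2.45 CPM on day 7. Their part in the result was not tested.

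Several other lists gave 0 or 1 call, from which nothing is read, the shares over all genes being 0.887% higher and 0.879% lower. Ier3 was the only gene called among 26 immediate early and heat shock genes (median log2 ratio -0.37 and -0.26), although Jun stood at 545 against 1238 CPM on day 7 and 803 against 1452 on day 8. In the list of 21 NF-kappaB and inflammation genes Nfkb1 was called higher, at 564 against 267 CPM on day 7 and 433 against 182 on day 8. Fgf2, a growth factor stored in the matrix around chondrocytes, was called higher among 8 FGF genes (42.1 against 16.0 CPM on day 7 and 36.4 against 12.3 on day 8). No gene was called among 19 glycolysis genes, 14 proteases and their inhibitors, 14 DNA replication genes or 15 YAP and mechanosensing genes. Cemip2, a hyaluronan-degrading membrane protein, was the called gene of 11 in hyaluronan metabolism, at 108 against 43.1 CPM on day 7.

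**Figure D3:**
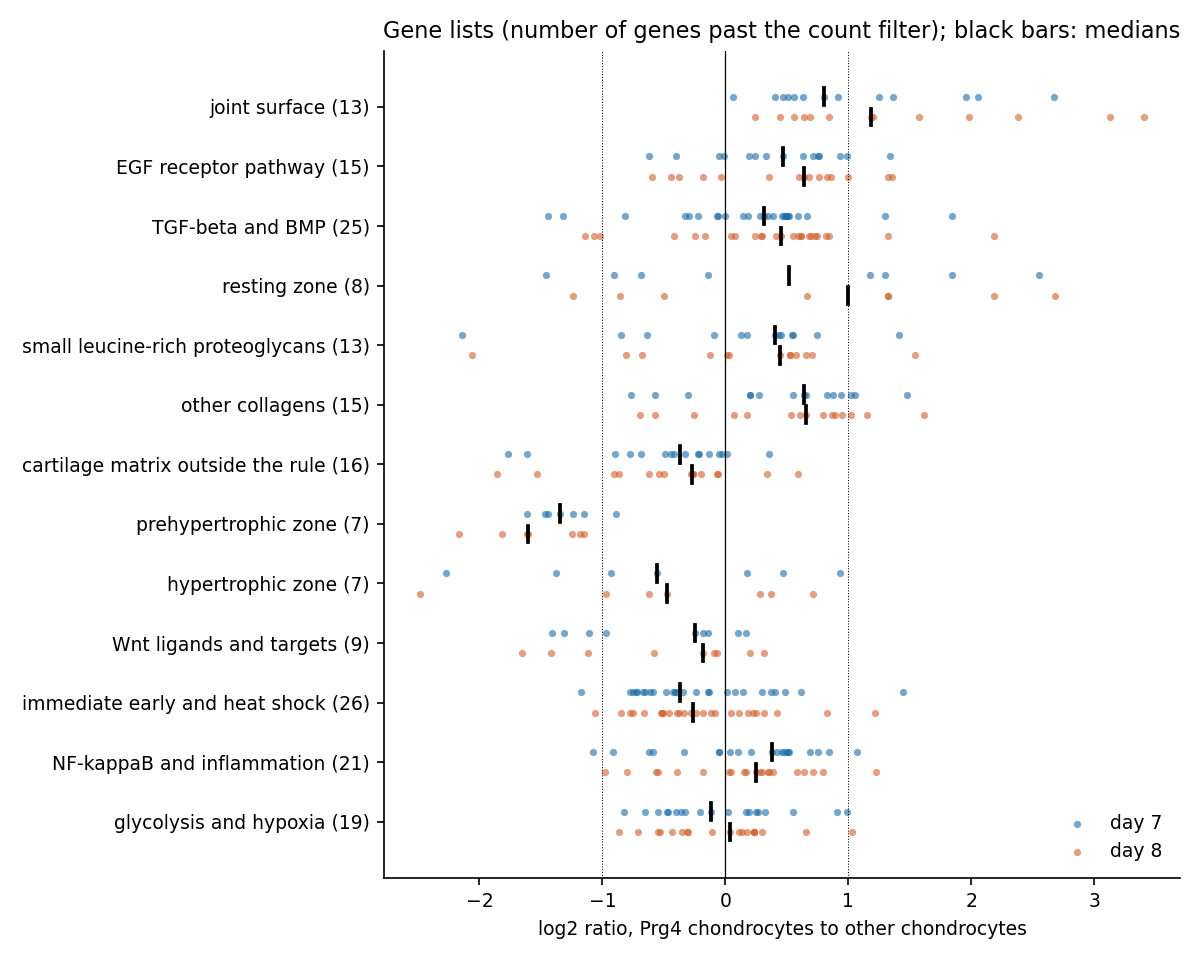
Log2 ratio of CPM (5 CPM added) in Prg4 chondrocytes to other chondrocytes (x axis) for each gene of 13 lists past the count filter, 1 point a gene, day 7 in blue and day 8 in orange, with black bars at the list medians and dotted lines at 2-fold. The joint-surface medians are 0.81 and 1.18 and the prehypertrophic medians -1.35 and -1.61.

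Values are next given by the amount of Prg4 within the members. Because the ranges are cut by Prg4 and the genes were chosen for their difference along it, the gradients are a description and support nothing further. Members were split by Prg4 into 0.2 to 0.5%, 0.5 to 1%, 1 to 2% and at least 2%, with 707, 400, 365 and 410 cells on day 7 and 402, 234, 242 and 518 on day 8. Creb5 had 247, 393, 520 and 812 CPM across these ranges on day 7 and 231, 471, 644 and 1065 on day 8, against 60.5 and 65.9 in cartilage cells with no Prg4 UMI. Of the 14 leading higher genes other than Prg4, 14 on day 7 and 12 on day 8 were higher at every step. The exceptions on day 8 were Gas1 and Chst3, and for all 14 the top range exceeded the lowest in both libraries.

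Errfi1 and Cytl1, markers of the label, had the same order. Errfi1 had 1104, 1337, 1563 and 2061 CPM across the ranges on day 7 and 694, 881, 1158 and 1378 on day 8. Cytl1 had 311, 327, 388 and 787 CPM on day 7 and 228, 395, 541 and 1122 on day 8, so that on day 7 most of its difference lay in the top range. Cilp was concentrated there too, at 7.96, 8.75, 31.0 and 114 CPM on day 7 and 26.1, 87.0, 144 and 274 on day 8. Between 0.2% and 0.25% Prg4, Creb5 had 201 CPM on day 7 and 134 on day 8, against 163 and 87.0 in cartilage cells just below the cut, with overlapping Poisson intervals. Wif1 differed across the cut on day 7, at 588 CPM just inside (527 to 654) and 406 just outside (365 to 451), as did Epyc, at 379 (330 to 433) and 517 (469 to 567). On day 8 the intervals of both genes overlapped, at 411 and 338 CPM for Wif1 and 560 and 629 for Epyc. Cytl1 was higher just inside on day 7, at 316 CPM (271 to 365) against 235 (203 to 270). Errfi1 had 1012 and 1011 CPM on that day and Ier3 516 and 449, with overlapping intervals. On day 8 the values just inside and just outside were 615 and 708 CPM for Errfi1, 165 and 184 for Cytl1 and 305 and 326 for Ier3. These 3 were thus not higher just inside on day 8.

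Genes of deeper cartilage ran the other way. Matn1 had 637, 409, 277 and 223 CPM across the ranges on day 7 and 820, 501, 243 and 213 on day 8. Epyc had 314, 232, 125 and 105 CPM on day 7 and 429, 243, 173 and 117 on day 8. Ucma had 3402, 2751, 2153 and 1401 CPM on day 7 and 4055, 2967, 2388 and 1369 on day 8. All 15 leading lower genes were below their lowest-range value in the top range on both days, 5 of them falling at every step in both libraries. The median share of cartilage genes also differed between the lowest and top ranges, from 6.24% to 4.75% of UMIs on day 7 and from 5.82% to 4.06% on day 8.

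**Figure D4:**
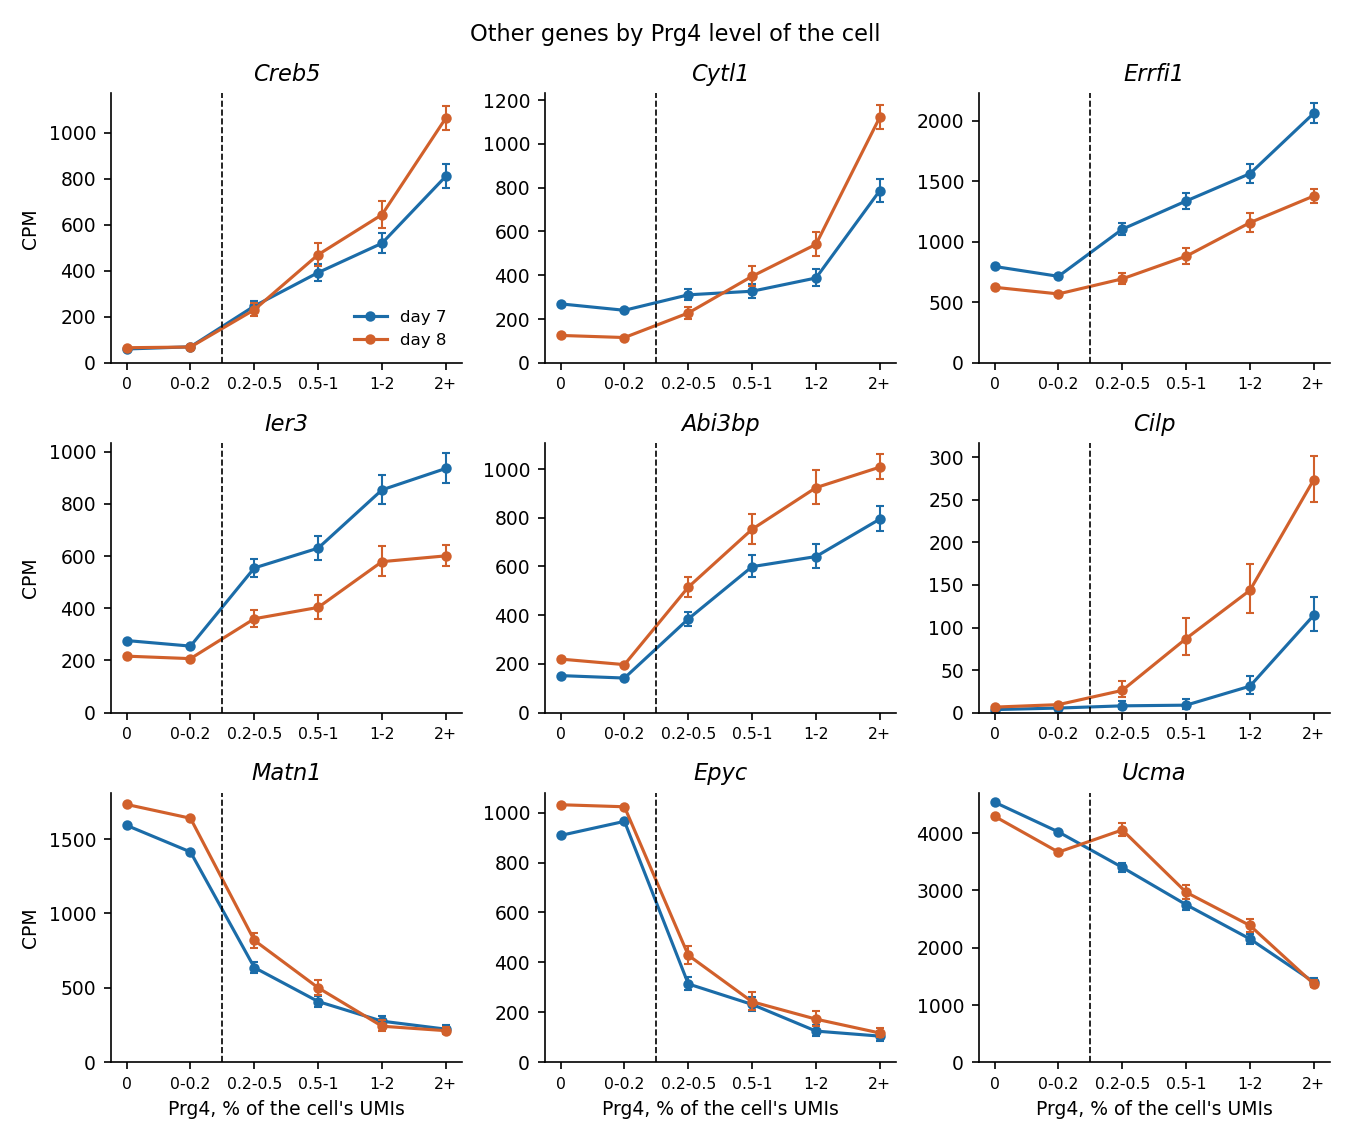
CPM (y axes, from 0) of 9 genes in cartilage cells grouped by Prg4 as a percent of the cell's UMIs (x axis; the dashed line is the 0.2% cut), day 7 in blue and day 8 in orange; bars are exact Poisson 95% intervals for the member ranges. Creb5 runs from 247 to 812 CPM on day 7 within the members, and Matn1 from 637 to 223.

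The day-12 library, which was not used to choose the genes, held 692 cells under the same rule and 2148 other chondrocytes. In that library 3.12% of 12480 genes past the filter were at least 2-fold higher in the rule's cells and 2.62% at least 2-fold lower. Of the 106 genes called higher on days 7 and 8, 101 passed the filter on day 12, 89 of these were at least 2-fold higher and 99 on the same side. Of the 105 called lower, 102 passed, 87 were at least 2-fold lower and 101 on the same side. Prg4 is counted among the higher genes, and the rule chose the cells by it.

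Some individual genes were further apart on day 12 and others closer together. The libraries differed in depth: the rule's cells held a median of 7543.5 UMIs on day 12 and 17413 on day 10, against 2607 and 2771 on days 7 and 8. Prg4 in other chondrocytes was 152 CPM on day 12, against 402 on day 7 and 610 on day 8. The part of depth and background in the values below was not tested. Of the leading higher genes, Wif1, Ano6, Rgs2, Abi3bp and Dhrs9 had smaller ratios than on either earlier day. Their day-12 ratios were 4.48, 2.98, 2.47, 3.39 and 1.77, the last below 2-fold. Creb5 had 1400 CPM in the rule's cells and 68.8 in other chondrocytes, a ratio of 19.05, and Cilp had 346 and 5.34, a ratio of 33.9. Gas1 had 985 and 57.3 CPM. Cytl1, uncalled on the earlier days because of day 7, had 606 and 87.3, a ratio of 6.63. Errfi1 had 200 and 81.0 CPM, a ratio of 2.38 at a far lower level than on days 7 and 8. The day-10 library, with 59 cells, also had higher levels in the rule's cells: Creb5 stood at 1388 against 84.7 CPM, Cytl1 at 743 against 51.6 and Errfi1 at 197 against 60.5.

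**Figure D5:**
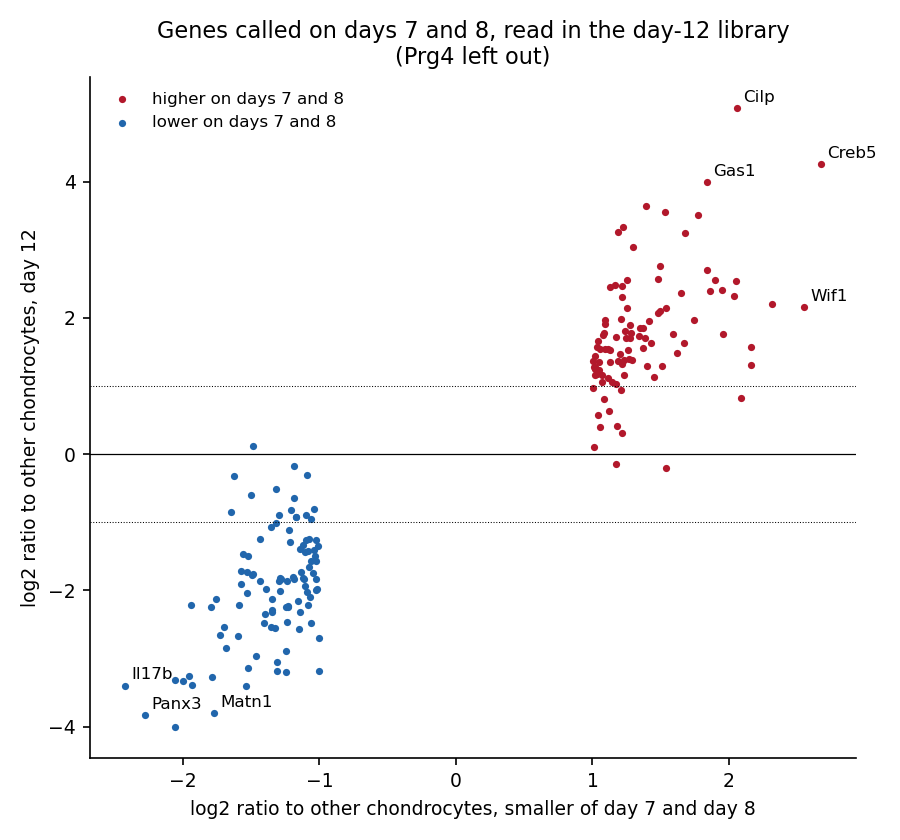
Log2 ratio to other chondrocytes on day 12 (y axis) against the smaller of the day-7 and day-8 ratios (x axis) for genes called on days 7 and 8 that passed the count filter on day 12, Prg4 left out; dotted lines mark 2-fold. Most red points lie above and most blue points below 0, with Cilp and Creb5 at the top.

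The next comparison set the members of day 8 against those of day 7. Of 12135 genes past the filter, 56 were at least 2-fold higher on day 8 (0.461%) and 15 at least 2-fold lower (0.124%). In the other chondrocytes the counts were 20 (0.12%) and 19 (0.114%) of 16710. The larger UMI sums of the other chondrocytes let more genes of low level past the filter, where the added 5 CPM shrinks ratios. The shares of members and of other chondrocytes are therefore not over the same genes. Prg4 itself was 13595 CPM in the members of day 7 and 20389 in those of day 8, and members with at least 2% Prg4 made up 21.8% and 37.1% of all members.

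Among the genes named by size as higher on day 8, Cilp had the largest ratio, going from 36.4 to 144 CPM (3.61-fold), against 4.93 and 9.13 CPM in other chondrocytes. Within the top Prg4 range alone it was 114 on day 7 and 274 on day 8. Cytl1 was 435 on day 7 and 626 on day 8 in members, but 247 and 117 in other chondrocytes. The metallothioneins, small metal-binding proteins, were lower on day 8: Mt1 was 2879 and 824 CPM in members and 1443 and 716 in other chondrocytes, and Mt2 was 2067 and 605 in members and 821 and 394 in the others. Both kinds of cell thus held less metallothionein RNA on day 8, from a higher day-7 level in the members.

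Several of the other leading genes between days moved in both kinds of cell. Rn18s, the gene of 18S ribosomal RNA, was 17772 CPM on day 7 and 4738 on day 8 in members and 14575 and 4850 in other chondrocytes, and Cxcl10, an interferon-induced chemokine, was 95.4 and 34.5 in members and 54.4 and 22.1 in the others. Tmsb4x, which binds actin, was 138 and 471 CPM in members and 115 and 374 in the others, and Hspb1, a small heat shock protein, was 36.9 and 101 in members and 50.8 and 120 in the others. Lyz2, the lysozyme of myeloid cells, was 9.33 and 35.2 CPM in members, and Ctss, a protease of the same cells, 8.95 and 29.8. Without cells holding 2 or more leukocyte or endothelial UMIs, Lyz2 fell below 2-fold. Because Lyz2 is itself one of those markers, that cut removes cells by their Lyz2 UMIs, and nothing is read from the fall. Over the 11 leukocyte markers, all with a UMI in each sum, the summed level was 60.9 on day 7 and 174 on day 8 in members and 51.7 and 141 in other chondrocytes. The 6 erythroid markers summed to 652 and 1533 CPM in members and to 504 and 2078 in the others, and their part in these differences was not tested.

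The last comparison kept the 0.2% floor on Prg4 and varied the cartilage genes. Cells with at least 0.2% Prg4 but less than 3% cartilage RNA, the other filters being the same, numbered 386 on day 7 and 1118 on day 8. Of 7666 genes past the filter, 25 were at least 2-fold higher in members in both libraries (0.326%) and 48 lower (0.626%). Col2a1, a rule gene, had 49863 CPM in members and 15190 in these cells on day 7. Median depth was 2410 and 2144 UMIs in these cells. Their Prg4 level was not equal to that of members. It was 21743 CPM on day 7 and 29362 on day 8, against 13595 and 20389 in members. Median Prg4 was 1.17% and 1.49% of a cell's UMIs, against 0.746% and 1.22%. The part of this gap in the differences below was not tested.

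Apart from rule genes, the leading genes higher in members included cartilage products. Because the groups were cut by cartilage RNA, these values are a description and support nothing further. Ucma had 2565 CPM in members and 904 in Prg4 cells with little cartilage RNA on day 7, and 2631 and 616 on day 8, ratios of 2.83 and 4.25. Matn3, a matrilin, had 753 and 262 CPM on day 7 and 806 and 262 on day 8. Omd, a small leucine-rich proteoglycan, had 171 and 41.2 CPM on day 7 and 214 and 61.8 on day 8. Calml3, Cxcl14, Ninj2 and Ntm were the other leading genes on this side, with ratios from 2.40 to 4.04. With members held to at least 1% Prg4 and the comparison cells unchanged, Ucma, Matn3, Omd, Cxcl14 and Ntm fell below 2-fold. The smaller log2 ratio was then 0.96 for Ucma, 0.76 for Matn3 and 0.56 for Omd. That run did not hold both groups to the same Prg4 floor.

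Members were lower than the cells with little cartilage RNA in Egfr and Thbs4, both called higher in members than in other chondrocytes, and in Cytl1, which was not. Cytl1 had 1420 and 1506 CPM in them on days 7 and 8, against 435 and 626 in members. Egfr had 147 and 143 CPM against 64.3 and 66.7, and Thbs4 had 69.4 and 183 against 30.8 and 66.4. Creb5 stood at 992 and 972 CPM, against 459 and 638 in members, and was not called. Errfi1 at 1650 and 1384 CPM, Ier3 at 605 and 451, Wif1 at 825 and 749 and Erg at 269 and 237 were likewise not called. Of 12 joint-surface genes past this filter, 0 were higher in members and 3 lower (Cytl1, Thbs4 and Dkk3).

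By the smaller ratio of both days, the largest gap on that side was in Msmp, a small secreted protein, which had 19014 CPM in the Prg4 cells with little cartilage RNA on day 7 and 2728 on day 8, against 439 and 387 in members. Igfbp5, an IGF-binding protein, had 359 and 325 CPM against 39.8 and 70.2, and Stc1, the secreted stanniocalcin, had 319 and 87.0 against 15.6 and 18.7. Cdh13 and Itih5 were lower in members as well, 4.37-fold and 4.14-fold on day 7. The globin genes Hbb-bs, Hbb-bt and Hba-a1 were also lower in members, by 7.73-fold, 7.15-fold and 6.07-fold on day 8. With comparison cells below 2% cartilage genes, Hbb-bs and Hba-a1 fell below 2-fold, to smaller log2 ratios of -0.72 and -0.33. The 6 erythroid markers summed to 2637 and 10857 CPM in the low-cartilage cells against 652 and 1533. Leukocyte markers summed to 117 and 645 CPM there against 60.9 and 174, and tendon markers on day 8 to 16277 against 7892, and their part in the differences was not tested.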

How the data were processed

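Counts of UMIs per gene and cell barcode were used as the authors deposited them, raw and whole-numbered, from 4 libraries prepared on a MobiDrop MobiNova-100 instrument per the labels' protocols. Per the submitters' processing notes, GRCm39 was the build. For the counting program, annotation and cell-calling rule, nothing is stated in these sources. The protocol text names another tissue at its digestion step. Genes are named as in the files (55416 features, 108 symbols on several features, and reads shared by paralogs such as Mt1 and Mt2 or the globins may be split by the counting). Cells were filtered by the rule above, and UMIs were summed and scaled to CPM with Python 3.11.15, NumPy 2.4.6, SciPy 1.17.1 and Scanpy 1.11.5. Intervals are exact Poisson for levels and exact Clopper-Pearson for shares, both at 95%. No test was possible with 1 library a day.

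Named genes were the 15 on each side with the largest smaller ratio of both days, 8 on each side in the other comparisons, the markers and members of 33 lists, leaving out mitochondrial, ribosomal protein, predicted and sex-linked genes. Members and lists were chosen with earlier results of these data known. Leukocyte and endothelial cells held UMIs of at least 3 of their markers. Doublets were not removed. Alternatives changed the cuts, depth, comparison cells, weighting, pseudocount, count filter and CPM base.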

Additional observations from a re-analysis of the deposited data

Results flagged for a closer look

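Cytl1 and Angptl1 differed in direction between days by kind of cell. For Cytl1 the lubricin cells had a log2 ratio, day 8 over day 7, of 0.52 and the other chondrocytes of -1.05, and for Angptl1 the values were 0.45 and -0.28. They were singled out because each went one way beyond its Poisson interval in the lubricin cells and the opposite way in the other chondrocytes, with 1 library on each day. The difference was not tested.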

How the results depend on the processing

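Among the genes named by size and the markers, Prg4 left out, none changed direction under any alternative run. For comparisons made in both libraries the smaller ratio was used. List medians, Prg4 ranges, values near the cut and the day-10 and day-12 libraries were not rerun. The share of lubricin cells among cartilage cells on days 7 and 8 was 32.4% and 41.2% with Prg4 of at least 0.1%, 13.1% and 17.2% with 0.5%, 8.64% and 13.1% with 1%, 16.9% and 18.9% with cartilage genes of at least 6%, and 27.1% and 33.8% with cells thinned to 1000 UMIs. Requiring 5 Prg4 UMIs gave 19.2% on day 7. Against other chondrocytes, 65 genes were higher and 53 lower with Prg4 of at least 0.1%, 44 and 25 after thinning, 41 higher with cartilage genes of at least 6%, 160 lower with Prg4 of at least 1%, and 202 lower with 1 CPM added. Of the 106 higher and 105 lower genes, 97 and 100 were also called with Prg4 of at least 0.5%, and 86 and 72 against cells without a Prg4 UMI. Ier3 and Matn1 fell below 2-fold with Prg4 of at least 0.1%, Ier3 and Prkg2 after thinning, and Cilp with cartilage genes of at least 6%.

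Between days in the lubricin cells, 32 genes were higher with Prg4 of at least 0.1%, 102 higher and 35 lower with 1%, 302 and 85 with 1 CPM added, and 88 higher with CPM computed without rule, mitochondrial and ribosomal genes. The lower count was 58 with cartilage genes of at least 6%, and 23 after thinning, without the highest 6% of Scrublet scores, and without cells holding 2 or more leukocyte or endothelial UMIs. In the last of these Lyz2, itself one of the leukocyte markers, fell below 2-fold. Against Prg4 cells with little cartilage RNA, in alternatives chosen after seeing the data, 47 genes were higher with comparison cells below 2% cartilage genes. With the lubricin cells alone held to at least 1% Prg4, and the comparison cells unchanged, 12 were higher. The cause of these changes was not tested. No paired analysis was possible because each day is 1 library and the labels give no replicate numbers. Depth limits genes under about 10 expected UMIs in a sum.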

Other observations

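Outside the lists, some further genes differed between the lubricin cells and other chondrocytes, and those below were chosen after their values were seen. Sema3e, a secreted semaphorin, had 102 CPM against 23.9 on day 7 and 97.9 against 30.6 on day 8. Ntn1, which encodes netrin, had 49.1 against 12.0 and 45.2 against 11.0, and Robo1, a Slit receptor, had 275 against 98.7 and 254 against 65.3. Unc5c, a netrin receptor, was on the other side, at 197 against 401 CPM on day 7 and 171 against 413 on day 8.

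Genes of the major histocompatibility complex, class II, gave a mixed picture. H2-DMa and H2-DMb2, subunits of H2-DM, which helps to load peptides onto class II molecules, were lower in the lubricin cells. They stood at 14.7 against 62.7 CPM and 3.81 against 29.8 on day 7, and at 15.6 against 54.2 and 5.67 against 26.8 on day 8. H2-Ab1, a chain of an antigen-presenting molecule, had 23.0 against 54.7 on day 7 and 27.0 against 80.9 on day 8. Its partner chain H2-Aa, at 1.90 against 2.30 CPM on day 7 and 7.09 against 7.05 on day 8, and Cd74, the invariant chain, at 2.47 against 3.18 and 10.9 against 11.8, were not called.

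The orphan nuclear receptors Nr4a2 and Nr4a3, which are induced by many stimuli, were higher in the lubricin cells. Nr4a2 had 873 against 425 CPM on day 7 and 869 against 342 on day 8, and Nr4a3 had 135 against 60.4 and 166 against 62.4. Inhba, which encodes an activin subunit, had 109 against 32.9 CPM on day 7 and 154 against 27.8 on day 8.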
